A study of Mus musculus with 22 samples.

Results

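The genes described here were 10 members of the Notch pathway and of the segmentation clock, taken as the rows of the count matrices that carry the symbols Hes7, Lfng, Nrarp, Hes1, Hes5, Dll1, Dll3, Notch1, Notch2 and Hey1, of 32285 genes in all. They were followed across the cell type names and days of the authors' cell table, with single gastruloids as replicates. Gastruloids are aggregates of mouse embryonic stem cells that form derivatives of the germ layers and extend along one axis; here the E14Tg2A line was used, an established mouse embryonic stem cell line, and no genetic change is named in the labels. All groups were grown alike: 300 cells per well aggregated for 48 h in N2B27 medium and then received a pulse of 3 µM CHIR99021, a GSK3 inhibitor that activates Wnt signalling, so that every group carries this treatment and there is no untreated control. The groups differed in day and experiment. MULTI-seq 3, in which each gastruloid's cells carry their own lipid-anchored barcode, held 24 gastruloids of day 3, a pool of 16 of day 3.5 with 16 of day 4, and a pool of 16 of day 4.5 with 16 of day 5. MULTI-seq 2 held 12 gastruloids of day 4 and 12 of day 4.5 in pool B, and MULTI-seq 1 held 24 gastruloids of day 5. In total 53730 of 77674 cells could be traced to 136 gastruloids. Day 3 and day 4 lanes without barcodes (the 10X experiment) and pool C of MULTI-seq 2 had no gastruloid calls and are given as values only; day 3 and day 3.5 of MULTI-seq 2 were not analysed here.

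In Notch signalling a ligand on one cell, such as Dll1, binds a receptor such as Notch1 or Notch2 on its neighbour, and the cleaved receptor enters the nucleus and joins the DNA-binding protein RBPJ to switch on targets such as the Hes and Hey repressors. In the presomitic mesoderm (PSM), the tissue that is cut into somites, Hes7 and Lfng are switched on and off in a repeating cycle, the segmentation clock, because Hes7 protein represses both genes; at the anterior end of the PSM the cycle stops and a somite boundary is laid down. In the neural tube the same pathway acts by lateral inhibition, in which neural progenitors keep Hes5 and Hes1 on while a few cells raise Dll1 and leave to become neurons.

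The start regions of 4 members that are known Notch targets are shown because the results below turn on how these genes move together or apart. They are read on the gene's own strand, 5′ to 3′, from RefSeq promoter windows of the GRCm38.p6 assembly and end at the base before the gene start of GENCODE vM21. Capitals mark the core RBPJ motif TGGGAA, the N-box CACNAG and the E-box CACGTG on either strand. The last 2 are motifs that Hes and Hey repressors bind.
Hes7 (chr11:69120203-69120403, plus strand): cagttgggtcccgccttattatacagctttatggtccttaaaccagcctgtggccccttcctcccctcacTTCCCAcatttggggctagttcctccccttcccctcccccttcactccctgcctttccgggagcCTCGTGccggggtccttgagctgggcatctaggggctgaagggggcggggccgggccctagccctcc
Lfng (chr5:140607091-140607319, plus strand): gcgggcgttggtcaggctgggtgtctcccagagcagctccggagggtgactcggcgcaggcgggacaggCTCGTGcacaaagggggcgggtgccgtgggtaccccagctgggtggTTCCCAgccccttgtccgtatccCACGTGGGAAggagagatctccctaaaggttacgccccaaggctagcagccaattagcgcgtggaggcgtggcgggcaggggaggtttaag
Hes5 (chr4:154960673-154960922, plus strand): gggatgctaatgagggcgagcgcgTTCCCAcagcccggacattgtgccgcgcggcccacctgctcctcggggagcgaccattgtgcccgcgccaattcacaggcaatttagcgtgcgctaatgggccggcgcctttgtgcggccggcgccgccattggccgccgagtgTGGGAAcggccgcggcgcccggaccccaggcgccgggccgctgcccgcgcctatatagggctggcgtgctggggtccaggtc
Nrarp (chr2:25180508-25180757, plus strand): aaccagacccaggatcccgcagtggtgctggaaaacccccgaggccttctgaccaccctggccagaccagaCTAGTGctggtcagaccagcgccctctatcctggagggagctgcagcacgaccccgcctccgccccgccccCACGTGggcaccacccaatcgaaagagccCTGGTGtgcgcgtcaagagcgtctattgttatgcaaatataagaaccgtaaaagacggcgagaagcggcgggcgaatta
Counted over the 250 bases before the RefSeq start, Hes7, Lfng and Hes5 each held the longer RBPJ form GTGGGAA, which 5.42% of 32851 promoter windows of that length hold. Hes5 carried it at both of its core matches, 226 bases (minus strand) and 83 bases (plus strand) before the start. Lfng carried it once, overlapping a CACGTG by shared letters, and had a second core match, an E-box that 6.02% of windows hold and an N-box. Hes7 carried 1 match and 1 N-box, and Nrarp had no TGGGAA in its window but a CACGTG and N-boxes. TGGGAA itself is in 21.6% of windows and CACNAG in 36.7%, so a single match to either is common. The T-box motif AGGTGT (11.8% of windows) and the TCF motif CTTTGA (13.8%) were in none of the 9 windows of the 8 members matched by symbol in the RefSeq table; Hes1 and Hey1 were not matched. Nrarp lies on chromosome 2 (25180758-25183339, plus strand), Hes5 on chromosome 4 (154960923-154962371, plus), Lfng on chromosome 5 (140607320-140615545, plus) and Hes7 on chromosome 11 (69120404-69124055, plus). Dll1 lies on chromosome 17 (15367354-15376872, minus), Dll3 on chromosome 7 (28293553-28302238, minus), Notch1 on chromosome 2 (26457903-26516663, minus) and Notch2 on chromosome 3 (98013527-98150361, plus). Hes1 lies on chromosome 16 (30064384-30067796, plus) and Hey1 on chromosome 3 (8663359-8667256, minus).

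The 18 lanes used held 64703013 to 307883815 unique molecular identifiers (UMIs), with a median per cell from 8287 UMIs in a lane of MULTI-seq 1 to 38443 in a lane of MULTI-seq 3. Lanes are technical splits of a pool and were summed, and the labels do not say that gastruloids of a day came from separate cultures, so p-values measure the spread between gastruloids. Levels are UMIs of a gene scaled to a fixed total per sum (CPM), for types of at least 20 cells in a gastruloid, and the smallest such sum in a tested group held 207671 UMIs (NMPs of MULTI-seq 1). Of 76935 barcodes, 732 occurred in more than 1 lane, at most 15 in any pair. The type names were checked against marker lists: summed posterior PSM markers were highest in Late Posterior PSM (1189 CPM), anterior PSM markers in Early Anterior PSM (1536) and then Late Anterior PSM (1367), somite markers in Somites (1747) and spinal cord markers in Late Spinal Cord (591). Late Anterior PSM held as much of the somite list (1371 CPM) as of the anterior PSM list. Neuromesodermal progenitor (NMP) markers were at 1436 CPM in Caudal Epiblast, 1428 in Notochord and 1286 in NMPs. NMPs held 1090 CPM of the Posterior PSM list, above Early Posterior PSM (942). The cells named Notochord also held the third highest Posterior PSM markers (1048 CPM), while the Notochord list, at 267 CPM, was highest there. Neuron markers were highest in Late Neurectoderm (407 CPM) among the types with enough cells. They were at 392 in Early Neurectoderm, 352 in Caudal Neurectoderm and 312 in Caudal Epiblast, against 79.8 in Late Spinal Cord. Head mesoderm markers were at 675 CPM in Cardiopharyngeal Mesoderm, 650 in Early Anterior PSM and 605 in Somites, against 589 in Head Mesoderm. Among the types with enough cells, neither list was therefore particular to 1 type. The cells named Neurons were too few per gastruloid and were not scored, so that name was not checked here. Cell types were clusters of the same expression values, so differences between types below are descriptions without a test.

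Among the ligands, Dll1, which activates Notch on the neighbouring cell, was highest in the PSM. Late Posterior PSM held 172 to 535 CPM of Dll1 with a mean of 321 ± 54.4 (SD, n = 71 gastruloids), Late Anterior PSM 291 ± 63.0 (n = 40), Early Posterior PSM 258 ± 95.7 (n = 34) and Early Anterior PSM 217 ± 45.4 (n = 15). The level was several-fold lower in NMPs (96.0 ± 38.1, n = 53), Somites (43.9 ± 24.8, n = 27) and Late Spinal Cord (29.8 ± 14.6, n = 35), and lowest in Mature Endoderm (2.85 ± 2.34, n = 31). Inside single gastruloids Dll1 was higher in Late Anterior PSM than in Somites in 25 of 25 that held both, and than in Mature Somites in 38 of 38. Dll3, a divergent ligand that acts inside the cell and dampens Notch in the PSM, was at nearly equal levels in Late Anterior PSM (238 ± 59.2) and Late Posterior PSM (237 ± 69.1). It was lower in NMPs (72.4 ± 17.8) and Somites (63.7 ± 34.9), and in the spinal cord Dll3 was near its lowest, with 5.65 ± 2.91 in Late Spinal Cord. The cells named Neurons, too few for a level per gastruloid, stood out: summed over 70 cells they held 224 CPM of Dll3 (exact Poisson 95% interval 198 to 252, counting error only) and 122 CPM of Dll1 (103 to 144).

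Of the receptors, Notch1 was highest where the PSM turns into somites. Late Anterior PSM held 454 ± 76.0 CPM (n = 40), Somites 365 ± 161 (n = 27) and Early Anterior PSM 326 ± 42.2 (n = 15), against 166 ± 24.4 in Late Posterior PSM (n = 71) and 24.1 ± 7.30 in Early Spinal Cord (n = 65). Notch2 had the same leading types, with 79.5 ± 23.8 in Somites, 78.8 ± 19.0 in Late Anterior PSM and 57.8 ± 15.0 in Early Anterior PSM. Its step from posterior to anterior was steeper, since Late Posterior PSM held 14.9 ± 4.40 CPM. Both Notch1 and Notch2 were higher in Late Anterior than in Late Posterior PSM in 38 of 38 gastruloids with both types.

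Of the modulators, Lfng had the same 3 leading types as the receptors, while Nrarp had means in anterior and posterior PSM that lay within 1 SD of each other. Lfng is the glycosyltransferase that changes how Notch receptors respond to their ligands. Over all days and experiments it reached 160 ± 37.9 CPM in Late Anterior PSM, 133 ± 81.1 in Somites and 104 ± 15.8 in Early Anterior PSM. In the posterior PSM it was at 33.8 ± 12.1 (Early) and 32.2 ± 8.79 (Late), and in NMPs at 6.80 ± 3.54. Lfng was higher in Late Anterior than in Late Posterior PSM in 38 of 38 gastruloids, and higher in Somites than in Mature Somites, which held 2.84 ± 3.35 CPM, in 24 of 24. Nrarp, a small ankyrin-repeat protein that Notch induces and that inhibits it in turn, was highest in Somites (280 ± 134), then Late Anterior PSM (220 ± 58.0) and Late Posterior PSM (208 ± 80.6). In the early types it was at 107 ± 25.4 in Early Anterior and 109 ± 56.7 in Early Posterior PSM. Nrarp was 17.3 ± 11.3 in Mature Somites, and 24 of 24 gastruloids had more Nrarp in Somites than in Mature Somites.

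The effector Hes7 ran the other way along the axis. Its highest level was in Late Posterior PSM, from 152 to 421 CPM with a mean of 307 ± 57.7 (n = 71), followed by NMPs (282 ± 43.7, n = 53) and Caudal Epiblast (214 ± 62.6, n = 28). Late Anterior PSM held 123 ± 50.3, Early Anterior PSM 38.2 ± 16.9 and Somites 12.7 ± 8.75. So Hes7 was lower and Lfng higher in anterior than in posterior PSM of the same gastruloid, in 38 of 38 for the late types and in 14 of 14 for the early ones. The order of Late Posterior PSM and NMPs was less fixed, with more Hes7 in the former in 39 of 50 gastruloids. Hes7 was also at 183 ± 54.5 in the cells named Notochord (n = 9), which carry the NMP and Posterior PSM markers given above; their part in this level was not tested. Hes7 was present in Early Spinal Cord (69.9 ± 29.8, n = 65), where it was above Late Spinal Cord (5.10 CPM) in 33 of 33 gastruloids. Early Spinal Cord also held 618 CPM of the NMP list and 111 of the Posterior PSM list, against 266 of the spinal cord list. In Late Spinal Cord these lists were at 172, 11.1 and 591 CPM. Their part in the Hes7 levels was not tested.

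Hes5 is the main Notch-driven repressor of neural progenitors. Over all days and experiments its mean was highest in Late Spinal Cord (236 ± 96.4, n = 35) and Late Neurectoderm (214 ± 165, n = 8). It was also high in Somites, from 17.4 to 454 CPM with a mean of 181 ± 128 (n = 27), and in NMPs (126 ± 49.3). The level in Somites differed between days and experiments, as given below. Hes5 was at 5.04 CPM in Mature Somites, below Somites in 24 of 24 gastruloids, and at 0.300 ± 0.505 in Early Nascent Mesoderm. In the spinal cord Hes5 and Dll1 ran opposite to Hes7: both were higher in Late than in Early Spinal Cord in 33 of 33 gastruloids. Hes1, a repressor that Notch and other signals both drive, was, among types with at least 5 gastruloids, highest outside the PSM, in Mature Endoderm (120 ± 29.4, n = 31), Notochord (108 ± 23.4, n = 9) and Early Nascent Mesoderm (104 ± 16.4, n = 15). Anterior Primitive Streak, with a level in 1 gastruloid (128 CPM), held 156 CPM of Hes1 over its 433 cells (exact Poisson 95% interval 150 to 163). Over all their cells Notochord held 118 CPM and Mature Endoderm 110, the reverse of their order by gastruloid. Among the types with at least 5 gastruloids the lowest Hes1 level was in Late Posterior PSM (18.7 ± 8.50), below Mature Somites (68.7 ± 19.4) in 59 of 59 gastruloids. Hey1, a repressor switched on in the newly formed somite, was highest in Somites (73.8 ± 14.4), above Late Anterior PSM (46.2 ± 20) in 25 of 25 gastruloids.

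**Figure D1:**
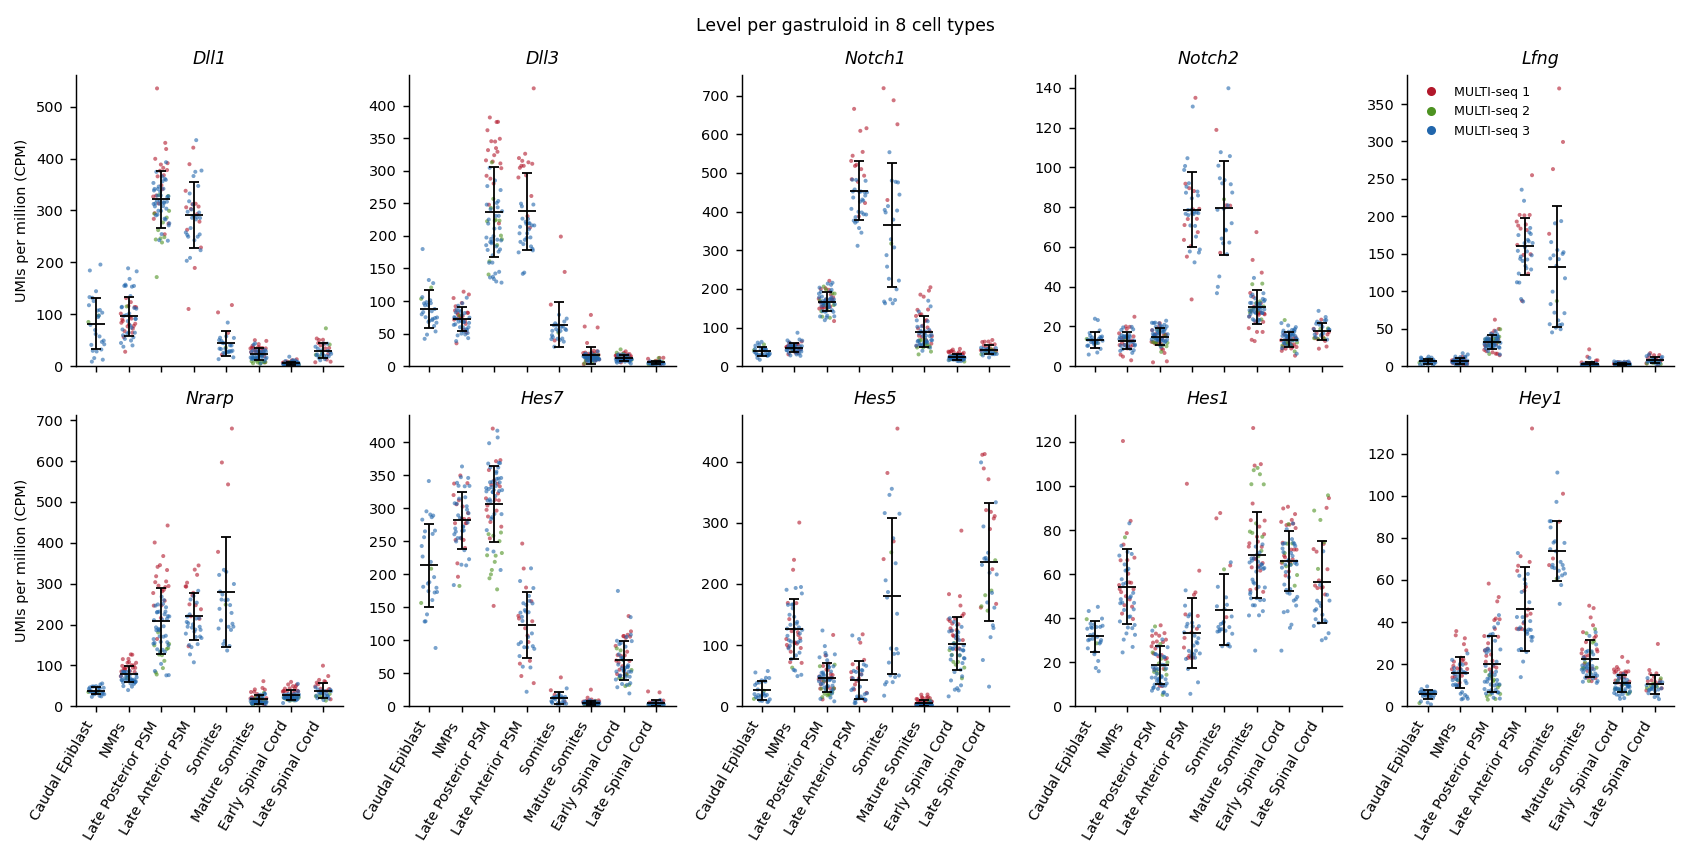
Level of each member (CPM, linear axis) in 8 cell types from Caudal Epiblast to Late Spinal Cord; each point is 1 gastruloid with at least 20 cells of the type, coloured by experiment, and the bar and whiskers are the mean and SD. By means over all days and experiments, Hes7 is highest in Late Posterior PSM (307 CPM) and NMPs (282). By the same means Lfng and Notch1 are highest in Late Anterior PSM (160 and 454), and Hes5 in Late Spinal Cord (236).

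In most of these orders, which are of means over all days and experiments, neighbouring means were closer than the spread between gastruloids. Over the 20 types with at least 5 gastruloids, 17 of 190 neighbouring pairs of means were apart by more than the larger of their SDs. This count does not use the pairing of types within gastruloids, for which the counts above are given. Part of the wide spread in Somites lay between days and experiments: Lfng there was 59.9 ± 11.7 CPM at day 4 (n = 10) and 156 ± 22.7 at day 5 (n = 10) of MULTI-seq 3, and 278 ± 80.7 at day 5 of MULTI-seq 1 (n = 4). Hes5 in Somites went the same way, with 53.2, 247 and 337 CPM in those groups, so that the day 4 level was the lowest for both genes. The Hes5 means at day 5 lay above the Late Spinal Cord mean over all groups. Likewise the 278 CPM of Lfng lay above the Late Anterior PSM mean over all groups. The types were not ranked within each group. The genes most like each member across 22 types, by Pearson correlation of log2(mean CPM + 1) among 9915 genes, share the same libraries and are listed as a description. For Hes7 they were Rspo3 (r = 0.89), Sema6a (0.86), Limch1 (0.85), Cpa6 (0.83) and Wnt3a (0.81). For Lfng they included Notch1 (0.88) and Pcdh8 (0.87), beside 0610009E02Rik (0.91), Gm38287 (0.88) and Kcnj6 (0.87), whereas Lfng with Hes7 gave 0.26. For Dll1 the first was Tbx6 (0.88), the transcription factor of the PSM, and for Hes5 they were Fra10ac1 (0.87) and Sdhaf3 (0.86).

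Summed over whole gastruloids, most members were lowest at day 3 and higher from day 3.5 or day 4 on. In such sums fewer cells of a type and less RNA per cell cannot be told apart. In MULTI-seq 3, Hes7 averaged 29.7 ± 7.50 CPM on day 3 (n = 24), then 100 ± 48.3, 94.0 ± 47.9, 86.9 ± 50.5 and 67.7 ± 26.4 on days 3.5, 4, 4.5 and 5 (n = 16 each), with gastruloids of day 4.5 spread from 5.22 to 174 CPM. Hes5 went from 2.21 ± 1.18 at day 3 to 92.5 ± 59.5 at day 4.5, and Lfng from 4.00 ± 1.88 at day 3 to 29.4 ± 13.6 at day 4. Hes1 and Dll3 did not share this low start, with 56.7 CPM of Hes1 and 59.9 CPM of Dll3 at day 3. The other experiments gave 70.9 (day 4) and 57.3 CPM (day 4.5) of Hes7 in MULTI-seq 2 and 102 CPM at day 5 in MULTI-seq 1. The lanes without gastruloid calls held 43.5 CPM of Hes7 at day 3 and 137 at day 4 of the 10X experiment, and 69.3 and 68.8 in the lanes of pool C of MULTI-seq 2. Days in different pools or experiments were not tested against each other.

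**Figure D2:**
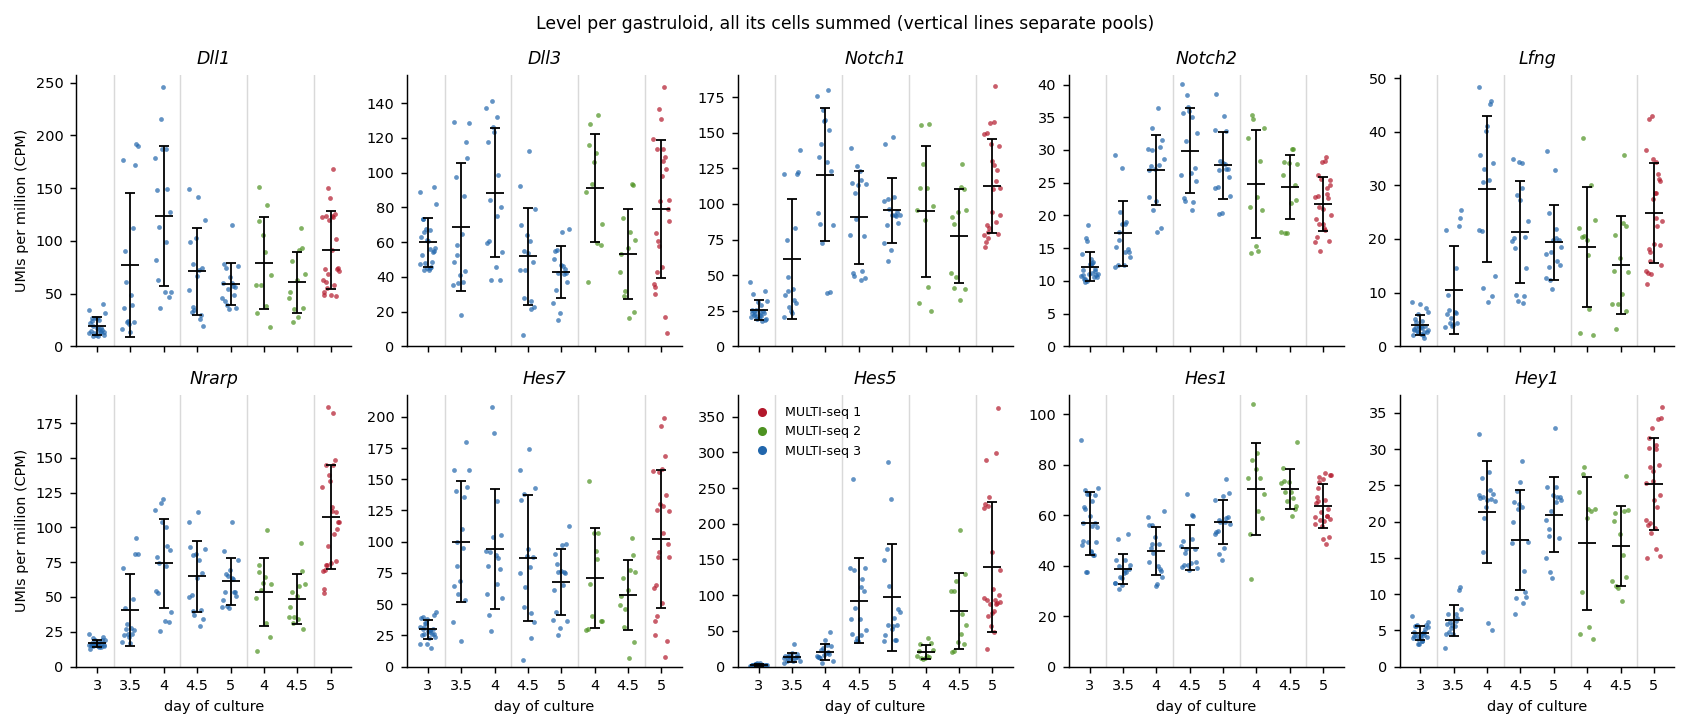
Level of each member summed over all cells of a gastruloid (CPM) by day of culture; each point is 1 gastruloid, coloured by experiment, the bar and whiskers are the mean and SD, and vertical lines separate pools. Hes7 at day 4.5 of MULTI-seq 3 spreads from 5.22 to 174 CPM, and Hes5 at day 3 averages 2.21 CPM.

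Between day 3.5 and day 4 of MULTI-seq 3, 7 of the 10 members rose in whole gastruloids and none fell (edgeR's quasi-likelihood test, Benjamini-Hochberg adjusted p under 0.05 over all genes, 16 against 16 gastruloids). The background was high: 60.4% of 13262 genes were called, 31.1% higher and 29.2% lower. The share of members called was near that of all genes called in either direction, and all 7 were higher. The rise was steepest for Hey1, from 2.60, 6.01 and 10.9 CPM (lowest, median, highest) to 5.06, 23.2 and 32.1. Its log2 fold change was 1.68 (SE 0.19, adjusted p = 1.9e-08), and 14 of 16 day 4 gastruloids lay above the median of day 3.5. Lfng went from 3.57, 6.25 and 25.5 CPM to 8.33, 32.1 and 48.3, a log2 fold change of 1.40 (SE 0.32, adjusted p = 0.00035). All 16 day 4 gastruloids lay above the day 3.5 median of Lfng, though the ranges overlapped. The receptors rose too: Notch1 went from 20.8, 39.7 and 138 CPM to 37.5, 131 and 180 (log2 0.92, SE 0.29, adjusted p = 0.0063), and Notch2 from 12, 15.7 and 29.2 to 17.5, 27.7 and 36.4 (log2 0.64, SE 0.11, adjusted p = 1.1e-05). Nrarp (0.81), Hes5 (0.62) and Hes1 (0.21) completed the 7; the Hes1 call was lost without lane A or lane D (adjusted p = 0.12 and 0.053) and the Hes5 call without lane C (0.052), and both were lost at a minimum of 100 cells. Hes7 gave −0.13 (SE 0.26), Dll1 0.62 (SE 0.38) and Dll3 0.32 (SE 0.25), none past the threshold. The makeup of the gastruloids moved over the same days: summed somite markers went from 14.2 to 297 CPM, anterior PSM markers from 165 to 515 and NMP markers from 818 to 329, and their part in these changes was not tested.

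Within named types 14 of 20 tests of members were called, all of them higher. In Caudal Epiblast, the posterior epiblast cells that feed NMPs and mesoderm (13 against 13 gastruloids), 7 members rose where 18.8% of genes were called and 9.61% were higher. Hes5 went from 6.82, 15.2 and 21.1 CPM to 17.1, 40.3 and 57.7 (log2 1.44, SE 0.16, adjusted p = 6.6e-08), and Hes7 from 88.4, 175 and 243 to 161, 266 and 341 (log2 0.65, SE 0.11, adjusted p = 8.5e-05). Day 4 lay above the day 3.5 median in 13 of 13 gastruloids for Hes5 and in 12 of 13 for Hes7, and the ranges overlapped. Dll1 rose by 1.26, Lfng by 0.78, Notch1 by 0.56, Dll3 by 0.50 and Nrarp by 0.49 on the log2 scale, of which Dll1, Lfng and Notch1 lost the call at a minimum of 40 cells (adjusted p = 0.059, 0.069 and 0.068). Marker lists moved in the same cells. The Posterior PSM list went from a summed mean of 591 to 1125 CPM (300.6 to 1036 against 554 to 1481 over gastruloids, 3 of 3 tested genes higher), the spinal cord list from 78.9 to 116 (69.2 to 93.5 against 63.4 to 189, 3 of 3 higher) and the epiblast list from 309 to 138 (203 to 452 against 104 to 196). No gene of these 3 lists was at 0 on either day, and their part in the result was not tested.

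In Early Posterior PSM (10 against 15 gastruloids) 7 members rose as well, where 36.9% of genes were called and 18.3% were higher. Hes5 went from 3.13, 5.27 and 10.7 CPM to 7.98, 18.6 and 63.1 (log2 1.61, SE 0.26, adjusted p = 1.0e-05), Hey1 from 2.65, 6.31 and 9.84 to 2.66, 16.8 and 32.6 (log2 1.28, SE 0.18, adjusted p = 8.4e-07) and Nrarp from 29.1, 85.1 and 125 to 70.5, 152 and 199 (log2 0.79, SE 0.13, adjusted p = 1.8e-05). Day 4 lay above the day 3.5 median in 15, 13 and 14 of 15 gastruloids for these 3 known Notch targets. Notch2 rose by 0.45, Lfng by 0.37, Dll1 by 0.31 and Dll3 by 0.22. Hes7 did not take part, with 128, 178 and 240 CPM at day 3.5 and 143, 174 and 258 at day 4 (log2 0.01, SE 0.10). Hes1, which Notch also drives, and the receptor Notch1 did not pass the threshold in these cells either. The somite marker list went here from a summed mean of 28.7 to 161 CPM (15.1 to 60.8 against 101 to 256, with no overlap), the Anterior PSM list from 597 to 1143 (261 to 987 against 905 to 1358, 5 of 5 genes higher) and the NMP list from 429 to 207 (268 to 749 against 174 to 379, 4 of 4 tested lower). No gene of these lists was at 0, and their part in the result was not tested. The difference between both types was itself tested within gastruloids that held both (10 against 12, limma, 7.28% of genes called). Caudal Epiblast minus Early Posterior PSM, the log2 change differed by 0.59 for Hes7 (SE 0.13, adjusted p = 0.0043) and by −1.27 for Hey1 (SE 0.34, adjusted p = 0.015), though Hey1 lost the call without lane B (0.25) or lane D (0.071) and with no filter on low counts (0.070).

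**Figure D3:**
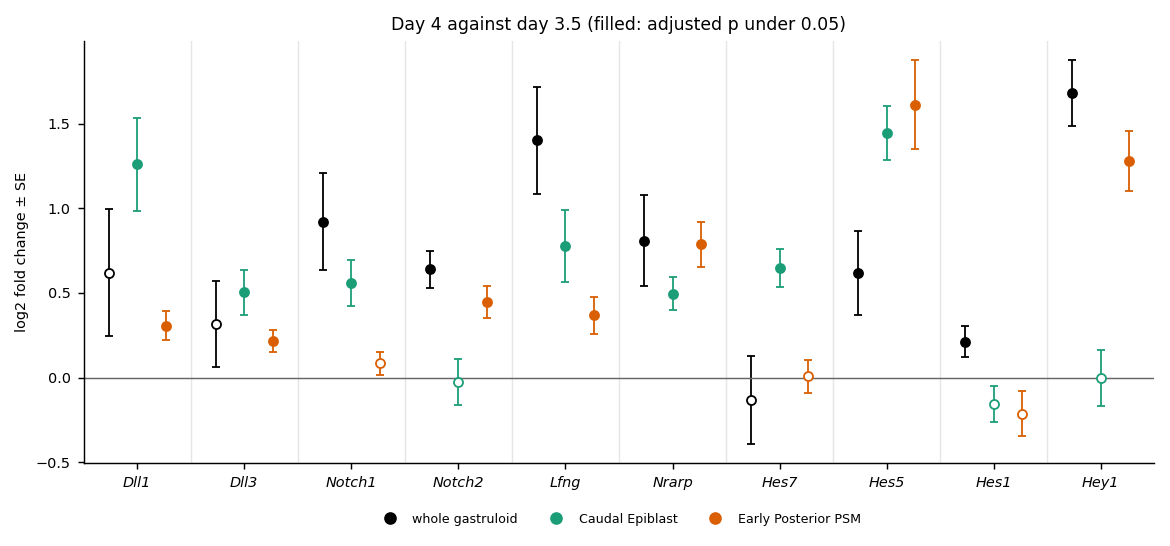
Log2 fold change of each member at day 4 against day 3.5 of MULTI-seq 3 with its standard error (whiskers), in whole gastruloids, Caudal Epiblast and Early Posterior PSM; filled points pass the adjusted p of 0.05 and open points do not. Hes5 and Nrarp are higher in all 3, Hes7 is higher in Caudal Epiblast (0.65) and near 0 in Early Posterior PSM.

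Other Notch pathway genes moved in both directions. In whole gastruloids 19 of 37 tested (43 listed) rose and 7 fell, 70.3% called against 60.4% of all genes, with a median log2 fold change of 0.14 against 0.01. The largest were Hes3 (−2.19), Hey2 (1.44), the ligand Jag1 (1.41), Dlk1 (1.13) and Jag2 (−1.08). In Caudal Epiblast 4 rose and 2 fell of 25 (24% called against 18.8%), led by the coactivator Maml3 (0.60), and in Early Posterior PSM 7 rose and 5 fell of 28 (42.9% against 36.9%), led by Dtx1 (2.03) and Jag1 (1.48). Of the other clock and wavefront genes, 7 rose and 10 fell of 26 in whole gastruloids (65.4% called against 60.4% of all genes), and 5 rose and 3 fell of 19 in Caudal Epiblast (42.1% against 18.8%), where Tbx6 (1.25) and Rspo3 (0.89) rose. In Early Posterior PSM 7 rose and 12 fell of 26 (73.1% against 36.9%). Mesp2, the boundary factor, rose there by 3.47. The posterior signal Wnt3a, the secreted Wnt inhibitor Dkk1 and the PSM factor Msgn1 fell by 2.34, 2.17 and 1.97. Of 14 somite boundary genes, 9 rose and 0 fell of 10 tested in whole gastruloids (90% called against 60.4%), led by Tcf15 (4.67) and Cer1 (4.60), 7 rose and 2 fell of 9 in Early Posterior PSM, and Epha4 (0.78) rose and Fgfr1 (−0.23) fell of 4 in Caudal Epiblast. Of 20 neurogenesis genes, 1 rose and 6 fell of 9 in whole gastruloids (77.8% called), 2 rose and 3 fell of 5 in Caudal Epiblast, and 1 rose and 4 fell of 5 in Early Posterior PSM; Tubb3, a neuronal tubulin, fell in all 3, by 1.41 in whole gastruloids and 0.94 in Early Posterior PSM. Most genes of the neurogenesis list and part of the boundary list did not pass the filter on low counts, so these counts do not cover the lists.

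Between day 4.5 and day 5 of MULTI-seq 3, Hes1 was the 1 member called in whole gastruloids, from 38.1, 45.8 and 68.2 CPM to 42.1, 57.3 and 74.4 (log2 0.26, SE 0.08, adjusted p = 0.029, 16 against 16), where 13.5% of 12298 genes were called. Without lane B of the pool its adjusted p was 0.077 and no member was called. The other 9 members had changes from −0.39 (Hes7, SE 0.29) to 0.24 (Hey1, SE 0.17). Of 38 other Notch pathway genes tested, 6 rose and 2 fell (21.1% called, median 0.03 against 0.00 for all genes), with the largest in Dlk1 (0.92), Heyl (0.77) and Hey2 (0.51).

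Inside types, Dll1 and Notch1 fell in NMPs and rose in Mature Somites. Of 58 tests of members in 6 types, 13 were called, 9 higher and 4 lower. NMPs, the bipotent posterior progenitors (8 against 14 gastruloids, 5.98% of genes called), held less Dll1 at day 5: the day 4.5 gastruloids had 73.9, 105 and 157 CPM and those of day 5 37.5, 61.1 and 102. The log2 fold change was −0.92 (SE 0.13, adjusted p = 1.3e-06), and 14 of 14 day 5 gastruloids lay below the median of day 4.5. Dll3 in NMPs fell by 0.46 (SE 0.12, adjusted p = 0.012) and Notch1 by 0.44 (SE 0.12, adjusted p = 0.02), while Hes1 rose by 0.51 (SE 0.11, adjusted p = 0.0013), from 30.3, 41.3 and 64.4 to 48.6, 61.7 and 83.0. These 4 calls held under all 5 alternatives fitted for NMPs. Those did not include leaving out a lane or a higher minimum of cells. How the NMP calls depend on single lanes was therefore not tested. Hes7 (−0.18, SE 0.08) and Hes5 (−0.01, SE 0.12) did not pass. In the same cells the primitive streak list went from 242 to 144 CPM (170 to 368 against 74.1 to 239, 1 of 5 genes at 0), the neuron list from 85.8 to 20.3 (24.0 to 108 against 9.71 to 43.7, 2 of 5 at 0) and the Posterior PSM list from 1155 to 1033 (968 to 1433 against 869 to 1207, none at 0), and their part in the result was not tested.

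Mature Somites showed the reverse for Dll1 and Notch1 (10 against 16 gastruloids, 14.6% of genes called). Dll1 went from 13.1, 16.6 and 21.4 CPM to 19.8, 27.9 and 43.9, a log2 fold change of 0.77 (SE 0.11, adjusted p = 7.5e-06), and 16 of 16 day 5 gastruloids lay above the day 4.5 median. Notch1 rose by 0.56 (SE 0.14, adjusted p = 0.0042) and Hes1 by 0.30 (SE 0.06, adjusted p = 0.00028), while Notch2 fell by 0.29 (SE 0.08, adjusted p = 0.0079). Notch1 lost the call at a minimum of 10 cells (adjusted p = 0.14), Hes1 without lane C (0.064) and Notch2 without lane B (0.11) or lane C (0.099); Dll1 held throughout. The head mesoderm list went in these cells from 656 to 433 CPM (569.6 to 739 against 358 to 536, 3 of 3 tested genes lower) and the Somite list from 1495 to 1600 (1276 to 1787 against 1383 to 1926, 3 of 6 higher), with no gene of either at 0; their part was not tested.

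In Late Posterior PSM (9 against 15 gastruloids, 6.15% of genes called) the change was in Hey1. It went from 6.74, 11.7 and 16.2 CPM to 19.2, 27.3 and 43.3, so the days did not overlap (log2 1.26, SE 0.14, adjusted p = 6.7e-09). Nrarp rose by 0.28 (SE 0.06, adjusted p = 0.0045), and Dll3 by 0.23 (SE 0.06, adjusted p = 0.02), the latter lost in 5 of 9 alternatives. Hes7, with 235, 329 and 418 CPM at day 4.5 and 207, 328 and 368 at day 5, gave −0.10 (SE 0.07), and Lfng gave −0.17 (SE 0.11), so neither passed the test. The somite list rose in the same cells from 126 to 237 CPM (86.3 to 182 against 114 to 330), 3 of 3 tested genes higher, and the anterior PSM list went from 277 to 171 (194 to 359 against 69.4 to 304); no gene of either was at 0, and their part was not tested. Late Anterior PSM (5 against 12, 1.81% called) had 1 call, Hes1, from 5.66, 16.9 and 24.1 to 22.0, 34.9 and 52.6 (log2 1.03, SE 0.24, adjusted p = 0.014), lost at a minimum of 10 cells (0.072). Early Spinal Cord (14 against 15, 12.3% called) had 1 call as well, Notch1 (0.26, SE 0.07, adjusted p = 0.0089), lost without lane A (0.13) or lane C (0.081). In Late Anterior PSM the Anterior PSM list went from 1539 to 1148 CPM (1335 to 1919 against 771 to 1611) and in Early Spinal Cord the Neuron list from 86.8 to 26.1 (36.8 to 164 against 16.7 to 39.2, 1 of 5 genes at 0); their part was not tested. Late Spinal Cord (7 against 8, 7.79% called) had 0 members past the threshold by edgeR and 0 by DESeq2, with 3 at an unadjusted p under 0.05 by edgeR.

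**Figure D4:**
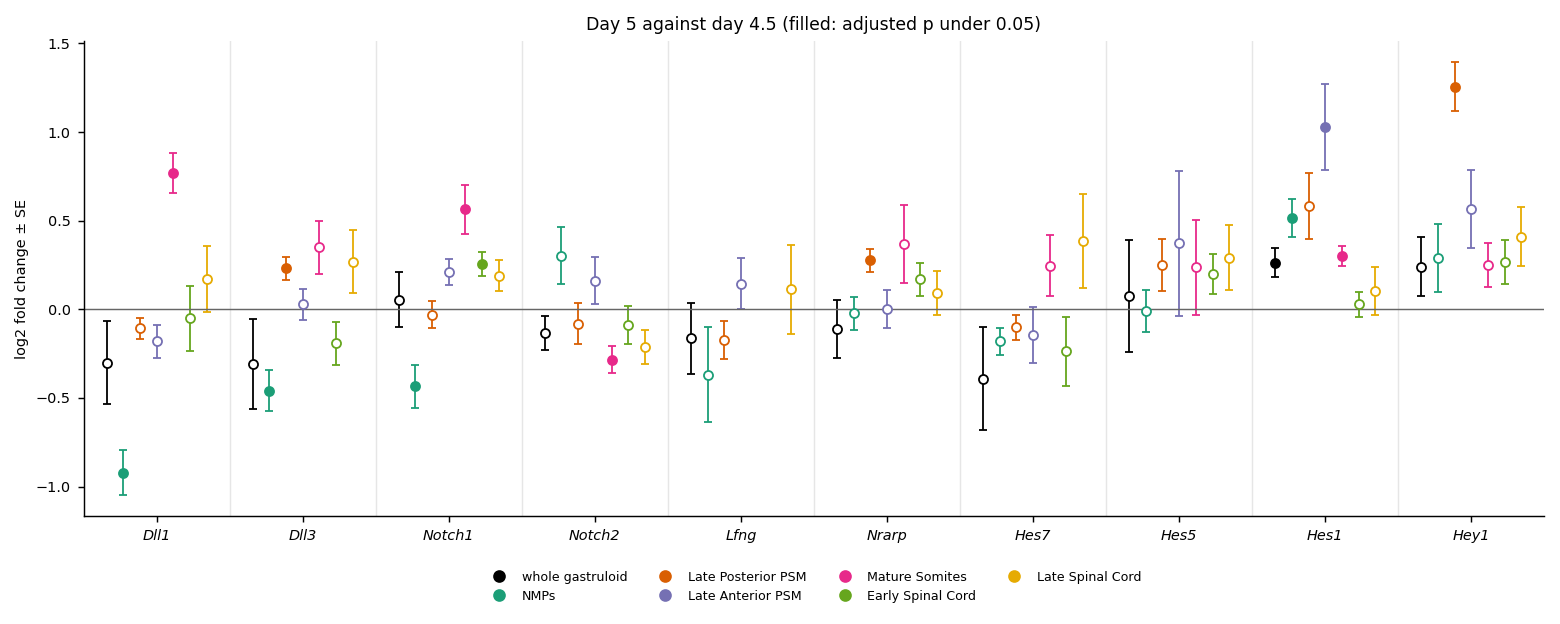
Log2 fold change of each member at day 5 against day 4.5 of MULTI-seq 3 with its standard error (whiskers), in whole gastruloids and in each of 6 types; filled points pass the adjusted p of 0.05 and open points do not. Dll1 is lower in NMPs (−0.92) and higher in Mature Somites (0.77), and Hey1 is higher in Late Posterior PSM (1.26).

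The contrast between types was tested within gastruloids holding both. Pairs share types and gastruloids, so their calls are not independent. Across 9 pairs of types 17 of 90 tests were called, against 0.342% to 5.91% of all genes; the count was 9 at a minimum of 10 cells and 8 with no filter on low counts. Mature Somites minus NMPs, the log2 change differed by 1.70 for Dll1 (SE 0.17, adjusted p = 1.8e-08, limma, 7 against 14 gastruloids, 5.91% of genes called), by 0.88 for Notch1 (SE 0.18, adjusted p = 0.0016) and by −0.72 for Notch2 (SE 0.16, adjusted p = 0.0053). Late Posterior PSM minus Mature Somites, it differed by −0.93 for Dll1 (SE 0.13, adjusted p = 3.2e-06, 4.09% called) and by 0.95 for Hey1 (SE 0.20, adjusted p = 0.0028, lost in 3 of 7 alternatives). Dll1 thus rose in Mature Somites and fell in NMPs. In Late Posterior PSM it was not called, and its change was below that in Mature Somites. Early Spinal Cord minus Late Posterior PSM, Hey1 differed by −1.12 (SE 0.21, adjusted p = 0.0023, 0.774% called) and Hes7 by −0.71 (SE 0.15, adjusted p = 0.0066), but Hey1 was lost in 3 and Hes7 in 4 of 6 alternatives. Early Spinal Cord minus NMPs (0.707% of genes called) had 4 calls, Dll1 at 1.21, Notch1 at 0.64, Hes7 at −0.48 and Hes1 at −0.47. Of these Notch1 held in 3 of 3 alternatives, Dll1 was lost in 1 (adjusted p up to 0.14), Hes1 in 2 (up to 0.16) and Hes7 in all 3 (0.064 to 0.39). Late Anterior PSM minus Mature Somites (2.18%) had 2, Dll1 at −0.98 and Hes1 at 0.96, the latter lost in 2 of 3 alternatives (up to 0.49), and Late Posterior PSM minus NMPs (0.776%) had 2, Dll1 at 0.76 and Dll3 at 0.67, each lost in 1 of 3 (0.19 and 0.13). Early Spinal Cord minus Mature Somites (5.37%) had 1, Hes7 at −0.87, lost in 3 of 5 alternatives (up to 0.62). Of the pairs Late Anterior PSM minus Late Posterior PSM (0.578%) and Early Spinal Cord minus Late Spinal Cord (0.342%), neither had a member past the threshold by limma, with 3 and 0 members at an unadjusted p under 0.05. Leaving out lane C left 4 pairs that could be fitted, with 2 calls against 6 over the same pairs.

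In MULTI-seq 2 day 4.5 against day 4 could be tested over whole gastruloids (11 against 12). Hes5 was the 1 member called, from 10.1, 14.6 and 39.3 CPM to 20.3, 66.1 and 191 (log2 1.92, SE 0.37, adjusted p = 0.0022), where 7.36% of 11064 genes were called. All 12 day 4.5 gastruloids lay above the day 4 median. Dll3 came next, from 37.2, 93.6 and 133 to 16.1, 54.7 and 93.4 (log2 −0.79, SE 0.25, adjusted p = 0.051), with 12 of 12 below the day 4 median, and it passed with DESeq2, which called 2 members. The other 8 members did not pass, from −0.40 for Dll1 (SE 0.29), −0.33 for Lfng (SE 0.34), −0.32 for Notch1 (SE 0.27) and −0.30 for Hes7 (SE 0.32) to −0.16 for Nrarp, −0.11 for Hey1, −0.07 for Notch2 and −0.03 for Hes1. Of 35 other Notch pathway genes 0 were called by edgeR, with 6 at an unadjusted p under 0.05, and 5 of 25 clock and wavefront genes fell, among them the Wnt targets Sp5 (−1.13), Nkd1 (−0.62) and Axin2 (−0.55) and the boundary factor Mesp1 (−1.58). Summed spinal cord markers went from 75.0 to 184 CPM over the same days, and their part in the Hes5 rise was not tested. No type reached 5 gastruloids per day at 20 cells.

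The experiments differed at the same day. At day 5, 24 of 57 tests of members in 6 types differed between MULTI-seq 3 and MULTI-seq 1, 10 higher and 14 lower in MULTI-seq 3, in a background of 59.1% of genes called in Early Spinal Cord, 39.6% in Late Anterior PSM, 52.5% in Late Posterior PSM, 47.5% in Late Spinal Cord, 54.2% in Mature Somites and 51.2% in NMPs. Without lane 2 of MULTI-seq 1 the 24 calls became 15. Notch2 was higher in MULTI-seq 3 in 5 of 6 types, by 0.45 to 0.65, and Nrarp lower in 5 of 6, with log2 differences from −0.57 to −0.23; each kept its direction with the other scalings, and Notch2 in Late Anterior PSM lost the call with UMI totals alone (adjusted p = 0.063) or without lane 2 of MULTI-seq 1 (0.056). Notch2 in NMPs lost it without lane A of MULTI-seq 3 (0.11), and Nrarp in Mature Somites without lane 2 of MULTI-seq 1 (0.10) or at a minimum of 40 cells (0.069). Dll3 was lower in MULTI-seq 3 in 4 types, Early Spinal Cord (−0.48), Late Anterior PSM (−0.30), Late Posterior PSM (−0.23) and NMPs (−0.24); the last was lost in 3 of 12 alternatives, among them without lane A of MULTI-seq 3 (adjusted p = 0.10), and the other 3 held in all 12. Hes5 in Mature Somites differed most, at −1.64 (SE 0.18, adjusted p = 4.3e-11). The other 9 calls were each lost or turned in 1 to 6 of 12 alternatives: Hey1 in Early (−0.25) and Late Spinal Cord (−0.28), Notch1 in Early Spinal Cord (−0.20) and Late Posterior PSM (0.18), Hes5 (0.44) and Hes7 (0.16) in Late Posterior PSM, and Dll1 (−0.34), Hes1 (0.29) and Hes5 (0.38) in NMPs. Lfng was tested in 3 of these types and called in none, at 0.05 to 0.10, whereas Somites, fitted at a minimum of 10 cells alone, gave −0.58 for Lfng (adjusted p = 2.5e-05 by edgeR). The scaling mattered here: with UMI totals alone the median gene moved to between −0.22 and −0.28 instead of about −0.03, the share of genes higher and lower in Early Spinal Cord went from 27.9% and 31.2% to 11.7% and 63.8%, and 37 member tests were called. The sign then turned for Hes1 in Early Spinal Cord, Hes7 and Notch1 in Late Posterior PSM and Hes7 in NMPs. At day 4.5, 13 of 36 tests in 4 types differed between MULTI-seq 3 and MULTI-seq 2, 8 higher and 5 lower in MULTI-seq 3 (8 calls in all with DESeq2), in a background of 37.7% called in Early Spinal Cord, 29.2% in Late Posterior PSM, 26.1% in Late Spinal Cord and 30.9% in Mature Somites. Hes7 was higher in Late Posterior PSM of MULTI-seq 3 (0.51, SE 0.07, adjusted p = 6.1e-07), and Hes1 was lower in Late Spinal Cord (−0.87), Mature Somites (−0.73) and Late Posterior PSM (−0.48). The last of these was lost in 4 of 8 alternatives, without lane B (adjusted p = 0.23) or lane C (0.14) of MULTI-seq 3, with DESeq2 (0.12) and with no filter (0.094). Nrarp was higher in Late Posterior PSM (0.38) and Late Spinal Cord (0.51), and both held in 8 of 8 alternatives. In Mature Somites Dll1 (0.71) and Notch1 (0.43) were higher, and Dll1 lost the call without lane 3 of MULTI-seq 2 (0.056) and Notch1 without lane 2 (0.063). Notch2 was higher in Late Posterior PSM (0.52), Late Spinal Cord (0.44) and Early Spinal Cord (0.34), lost in 1 of 8, 2 of 8 and 6 of 11 alternatives. Dll3 was lower in Early Spinal Cord (−0.52) and Late Posterior PSM (−0.19), lost in 2 of 11 and 6 of 8. In these 4 types no test of Hes5, Hey1 or Lfng passed by edgeR; NMPs, fitted at a minimum of 10 cells alone, gave 0.72 for Hes5 (adjusted p = 0.00021). The lanes of MULTI-seq 3 also had a lower median mitochondrial share of UMIs (1.94% to 2.26%) than those of MULTI-seq 1 and 2 (5.20% to 5.48%). The median UMI count per cell was 8287 to 15709 in the lanes of MULTI-seq 1 and 26466 to 30826 in the MULTI-seq 3 lanes of days 4.5 and 5. The part of both was not tested. Experiment, culture and library cannot be told apart in these comparisons.

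Gastruloids of one day, pool and type differed more in some members than in others. The spread beyond counting noise was taken as the biological coefficient of variation that edgeR estimates for a gene. Its square, the dispersion, was divided by the dispersion of genes of like level. This ratio was ranked among all genes of the same fit. Hes5 had a median of 0.212 against 0.0744 for genes of like level, and lay above the 95th percentile in 23 of 24 groups of gastruloids. Hes7 had 0.174 against 0.0728 and was above it in 20 of 30 groups, and Dll1 in 18 of 29. Notch2 had the lowest median percentile, 77.5, and lay above the 95th in 7 of 30 groups. The lowest median coefficient was in Notch1 (0.0999, against 0.101 in Notch2). These are descriptions, with no test, and several groups share gastruloids across types.

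Single cells of the posterior PSM were then ranked by Hes7 within each gastruloid. The upper and lower 50% of cells were compared for Lfng, Nrarp, Notch1, Hes5 and Hes1. This ranking was chosen after values had been seen and is a description. Values of Dll1, Dll3, Notch2 and Hey1 are not given, so the place of Lfng among all members in this split is not shown. In Late Posterior PSM Hes7 itself was 480 CPM in the upper and 130 in the lower cells, by construction. Lfng, also a gene of the clock, was 46.8 ± 14.6 CPM in the Hes7-high cells and 17.3 ± 7.31 in the Hes7-low cells. It was higher in the former in 70 of 71 gastruloids. That included 20 of 20 gastruloids of MULTI-seq 1 and all 12 of MULTI-seq 2, at similar depth in both sets of cells (median 26870 and 25730 UMIs). Nrarp (223 against 192 CPM) and Notch1 (177 against 155) were higher in 55 of 71 gastruloids each, Hes5 (52.0 against 41.3) in 52, and Hes1 (18.9 against 18.5) in 39 of 71. The Lfng difference was smaller in Early Posterior PSM (40.5 against 27.8 CPM, 30 of 34 gastruloids) and NMPs (9.14 against 4.56, 43 of 53). In anterior PSM Hes7-high cells held more Lfng in 18 of 40 gastruloids (Late, 151 against 169 CPM) and 9 of 15 (Early, 102 against 105), and in Early Spinal Cord in 31 of 65.

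**Figure D5:**
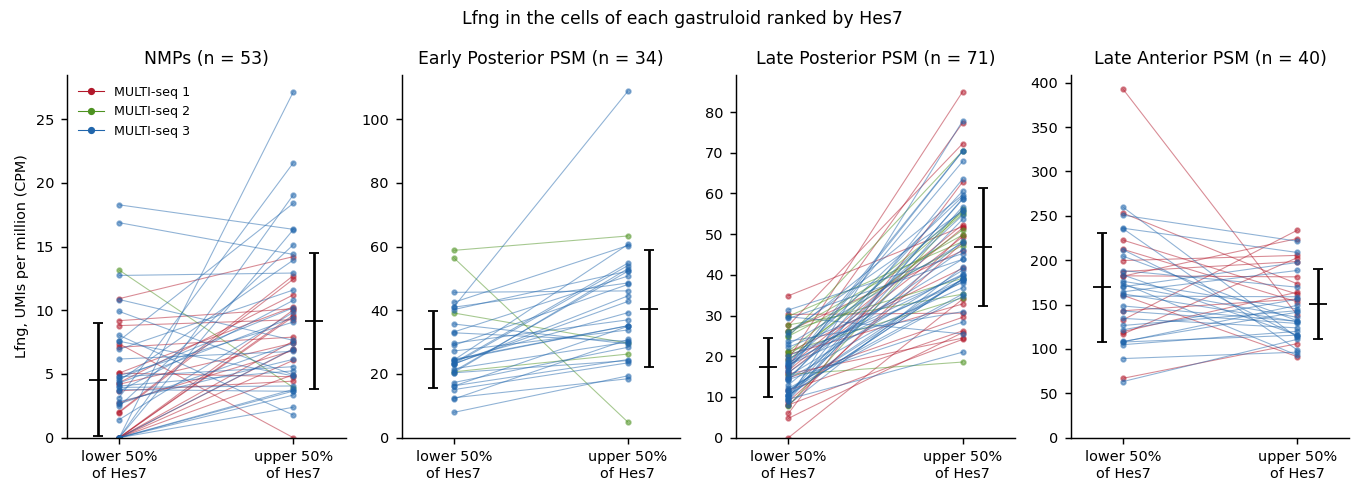
Lfng level (CPM) in the lower and upper 50% of the cells of each gastruloid ranked by Hes7, in NMPs, Early Posterior PSM, Late Posterior PSM and Late Anterior PSM; a line joins the values of 1 gastruloid, coloured by experiment, and the black bars and whiskers are mean and SD. Lfng is higher in the upper set in 70 of 71 gastruloids in Late Posterior PSM and in 18 of 40 in Late Anterior PSM.

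Across single cells, centred within gastruloid and lane, the Pearson correlation of Hes7 with Lfng in Late Posterior PSM lay between 0.21 and 0.39 over 7 groups of pool and day with 142 to 1326 cells. Lfng had the highest correlation with Hes7 of all genes tested in 6 of 7 groups, and Cdx2 was among the first 5 in 5 of 7. After thinning to 5000 UMIs per cell the range was 0.06 to 0.16, which is weak in counts this sparse. At full depth 95.1% of Late Posterior PSM cells of day 5 held a Hes7 UMI and 38.5% a Lfng UMI, against 9.20% and 24.6% of Late Spinal Cord cells. Such shares were counted within a group of pool and day. They depend on depth, which was lower in the day 5 lanes of MULTI-seq 1 than in those of MULTI-seq 3. The same pair gave 0.00 to 0.08 in Late Anterior PSM and −0.12 to 0.06 in Early Spinal Cord. In Late Anterior PSM Hes7 went instead with Dll1 (0.26 to 0.46) and Lfng with Notch1 (0.21 to 0.44), and Dll1 with the boundary factor Mesp2 (0.46 to 0.59). These were not always the nearest genes. Rspo3 (0.37 to 0.54) and Gm45889 (0.24 to 0.54) were each first for Hes7 in 2 of 4 groups, and Dll1 in 0. For Dll1, Rspo3 was first in 3 of 4 groups (0.44 to 0.62) and Mesp2 in 1. For Lfng, Ripply2 was first in 2 of 4 groups (0.34 to 0.39) and Notch1 in 1. In NMPs Dll1 went with Fgf3 (0.43 to 0.67) and Dll3 (0.31 to 0.45) and inversely with Hes5 (−0.30 to −0.18). In Early Spinal Cord the posterior signal Rspo3 was among the 5 genes nearest Hes7 in 6 of 6 groups (0.24 to 0.51), and Fgf8, Fgf17 and T were in 4 of 6 each. Nrarp with Hes5 was the pair that recurred most, at 0.15 or more in 28 of 32 groups of type, pool and day, with a median of 0.25. Cells of a group share their libraries, and no p is given.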

How the data were processed

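Single-cell RNA was read as droplet libraries in which MULTI-seq barcodes mark the gastruloid of a cell. The deposited matrices hold raw UMI counts per gene and cell, per the file headers; the authors used Cell Ranger 6.0.0 and Seurat with the mm10 genome build, per the submitters' processing notes. Cell type names and gastruloid calls come from the authors' cell table. Cells it calls negative or doublet, or that it gives no gastruloid, entered no sum per gastruloid and no test; values given over all cells of a type name, and those of lanes without gastruloid calls, include them. No doublet caller was run. In all 0 value columns were left unmapped, and 4 of 22 sample records had no file used here.

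Counts were summed over lanes per gastruloid (at least 30 cells) and per gastruloid and type (at least 20 cells, at least 5 gastruloids in each group). Days within a pool, and experiments at a day, were compared with edgeR 4.0.16 (TMM, filterByExpr, quasi-likelihood test), and changes between types with limma 3.58.1 on within-gastruloid differences of log2 CPM (prior count 2), in R 4.3.3. Fits used all genes, with Benjamini-Hochberg adjustment and a threshold of 0.05. Alternatives were DESeq2 1.42.0, RLE factors, no filter, other cell minimums, a prior count of 0.5, each lane left out and, chosen after seeing the data, UMI totals alone as scaling. Python 3.11.15 with numpy 2.4.6, pandas 2.3.3, scipy 1.17.1 and matplotlib 3.10.9 did the rest.

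On counts simulated for the day 4 against day 3.5 comparison of whole gastruloids (13177 to 13197 genes), edgeR recovered 74.0% of genes changed by 0.5 on the log2 scale and 93.5% of those changed by 1. For Late Posterior PSM minus NMPs at day 5 against day 4.5 (8747 to 8756 genes), limma recovered 39.5% and 88.0%. Of the calls on these simulated counts, 2.63% and 6.03% were false for edgeR and 7.06% and 6.38% for limma, in the same order. The share of false calls was thus above the threshold of 5% in 3 of these 4 runs. For edgeR in Late Posterior PSM at day 5 against day 4.5, recovery was 73.5% and 93.5%. There 5.77% and 6.5% of calls were false, also above 5%. Each run changed 200 genes, a far smaller share than the 60.4% called between day 3.5 and day 4. How these rates carry over to that case was not tested.

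All 10 members were tested in each comparison where the filter on low counts kept them, and the text gives each call by edgeR and the members that did not pass singly, by range or by count. From the gene lists the text gives counts for the comparisons of days in which it describes them, and up to 5 called genes with the largest log2 fold change; list counts between experiments are not given; for likeness it names up to 5 genes with the highest correlation. The members and lists were chosen with earlier results of these data known. Shares, intervals and CPM of summed counts cover counting error only.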

Additional observations from a re-analysis of the deposited data

Results flagged for a closer look

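Single gastruloids stood apart from the others of their type, day and pool in 8 of 110 sets of values. Each set was 1 member in 1 group of 4 to 10 gastruloids. The rule was the gap to the nearest other gastruloid relative to the whole range. Normally distributed values pass it in about 1 in 20 sets. The 10 members share the same gastruloids, so the sets are not independent. In all 8 the highest gastruloid stood apart. For Dll1 the highest gastruloid held 378 CPM in Early Posterior PSM at day 3.5 (next 272, n = 10) and 393 CPM in Late Posterior PSM at day 4.5 of MULTI-seq 3 (next 329, n = 9). For Hes1 it held 55.1 CPM in Late Spinal Cord at day 4.5 (next 44.1, n = 7) and 70.4 CPM at day 5 (next 50.6, n = 8). Lfng reached 15.7 CPM in Late Spinal Cord at day 4.5 (next 8.58, n = 7) and 4.07 CPM in Mature Somites of MULTI-seq 2 at day 4.5 (next 1.64, n = 7). Notch2 reached 44.4 CPM in Mature Somites at day 4.5 of MULTI-seq 3 (next 36.0, n = 10) and 23.2 CPM in Early Spinal Cord of MULTI-seq 2 (next 13, n = 8).

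The change between days differed between types of the same gastruloids in 19 tests by limma (adjusted p under 0.05). These were 2 of 10 at day 4 against day 3.5, where 7.28% of all genes were called. At day 5 against day 4.5 they were 17 of 90, where 0.342% to 5.91% of all genes were called per pair. The latter pairs share types and gastruloids, so their calls are not separate findings. Values are the difference of log2 changes, first type minus second. At day 4 against day 3.5, Caudal Epiblast minus Early Posterior PSM gave 0.59 for Hes7 and −1.27 for Hey1. At day 5 against day 4.5, Early Spinal Cord minus Late Posterior PSM gave −0.71 for Hes7 and −1.12 for Hey1, and Early Spinal Cord minus Mature Somites −0.87 for Hes7. Early Spinal Cord minus NMPs gave −0.48 for Hes7, −0.47 for Hes1, 1.21 for Dll1 and 0.64 for Notch1. Late Anterior PSM minus Mature Somites gave 0.96 for Hes1 and −0.98 for Dll1. Late Posterior PSM minus Mature Somites gave −0.93 for Dll1, −0.56 for Notch1 and 0.95 for Hey1, and Late Posterior PSM minus NMPs 0.76 for Dll1 and 0.67 for Dll3. Mature Somites minus NMPs gave 1.70 for Dll1, 0.88 for Notch1 and −0.72 for Notch2. The calls held under each alternative that could be fitted for 7 of 19: Hes7 in the day 4 pair, Dll1 against Mature Somites in both PSM types, Dll1, Notch1 and Notch2 in Mature Somites minus NMPs, and Notch1 in Early Spinal Cord minus NMPs. Notch1 in Late Posterior PSM minus Mature Somites (adjusted p = 0.039) was lost in each of its 7 alternatives, and Hes7 in Early Spinal Cord minus NMPs in each of its 3 (0.064 to 0.39). Hes7 in Early Spinal Cord minus Mature Somites was lost in 3 of 5 (up to 0.62) and Hes1 in Late Anterior PSM minus Mature Somites in 2 of 3 (up to 0.49).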

How the results depend on the processing

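Of 92 member calls, 47 held under each alternative that could be fitted. With DESeq2 the whole-gastruloid comparison of MULTI-seq 2 had 2 calls (1 by edgeR), and the day 4.5 comparison of experiments 8 (13 by edgeR). With UMI totals alone as scaling the day 5 comparison of experiments had 37 calls (24 with TMM), and the sign turned for Hes1 in Early Spinal Cord (−0.21), Hes7 (−0.036) and Notch1 (−0.019) in Late Posterior PSM and Hes7 in NMPs (−0.14). The type differences at day 4 against day 3.5 (2 calls) became 4 at a minimum of 10 cells and 1 with no filter, and those at day 5 against day 4.5 (17 calls) became 9 and 8; the cause was not tested. Leaving out 1 lane at a time gave 6 to 7 calls in whole gastruloids and 13 to 13 within types at day 4 against day 3.5, and 1 to 6 for its type differences (1 without lane B or D, 6 without lane C). At day 5 against day 4.5 it gave 0 to 1 in whole gastruloids (0 without lane B), 4 to 7 within types (4 without lane C, 8 over the same 4 types with all lanes) and 2 to 6 for type differences (2 without lane C). It gave 1 to 1 in MULTI-seq 2, 15 to 25 for the experiments at day 5 (15 without lane 2 of MULTI-seq 1) and 3 to 14 at day 4.5, where leaving out either lane of MULTI-seq 2 left 2 types with 3 calls against 5. Fewer cells per lane also leave fewer types that can be fitted. Within types of MULTI-seq 2, and between experiments at day 4, too few gastruloids held 20 cells of a type. At a minimum of 10 cells Late Posterior PSM could be fitted, where Nrarp rose in MULTI-seq 2 from day 4 to day 4.5 (0.60, adjusted p = 0.00069 by edgeR), and at day 4 Hes7 (0.45), Nrarp (0.44) and Dll1 (0.41) were higher and Hes1 (−1.18) and Dll3 (−0.35) lower in MULTI-seq 3 than in MULTI-seq 2. The calls in the other types at day 4 were Hes7 (0.62) and Dll3 (−0.31) in Early Posterior PSM, Lfng (−0.41), Notch1 (−0.30) and Notch2 (−0.61) in Early Anterior PSM and Hes1 (−0.90) in Caudal Epiblast. Other types fitted at 10 cells alone had calls for Hes5 (1.66), Nrarp (0.85) and Notch1 (0.79) in Primitive Streak at day 4 against day 3.5 and for Hes5 (0.84) and Notch1 (0.46) in Somites at day 5 against day 4.5 of MULTI-seq 3. Between experiments they were Lfng (−0.58), Nrarp (−0.65), Dll3 (−0.65) and Notch1 (−0.23) in Somites and Hes1 (−0.35) in Mature Endoderm at day 5, and Hes5 (0.72), Hes7 (0.42) and Hes1 (−0.59) in NMPs at day 4.5. The share of all genes called was not computed for these fits, so nothing is read from their number. No paired analysis was possible because lane numbers and letters name splits of one pool and the days of one pool share no barcode number; a barcode that recurs in another pool or experiment names the oligo, not a shared gastruloid or culture. Depth limits Lfng in spinal cord and mature somites, where it was at a few CPM and in part not tested.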

Other observations

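Cells with few gastruloids or none named gave further values for the members, summed over all cells of a name. Endothelium (303 cells) held 83.4 CPM of Notch1, 34.1 of Nrarp and 21.1 of Hey1, and the cells named PGCs (279) 25.0 CPM of Hes1. Neurons (70 cells) held 2.52 CPM of Hes7. In the lanes without gastruloid calls, Hes5 was 1.65 CPM at day 3 and 51.4 at day 4 of the 10X experiment, and 65.1 and 70.8 in pool C of MULTI-seq 2; Dll3 was 131 and 125 CPM at day 3 and day 4 of the 10X experiment.

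At day 5 against day 4.5 of MULTI-seq 3, genes of the pathway outside the 10 members moved within types. In Mature Somites 4 of 32 other Notch pathway genes rose and 2 fell, 18.8% called against 14.6% of all genes, with the repressor Heyl at 2.04 and the ligand-like Dlk1 at 0.73. In Early Spinal Cord 3 rose and 1 fell of 28 (14.3% against 12.3%), so the shares in these types were near those of all genes, with Hes3 at −1.34 and the receptor Notch3 at 0.44. In Late Posterior PSM Notch4 (0.75) and Notch3 (0.48) rose and Jag1 (−0.69) fell, of 25 tested (12% called against 6.15%). Among clock and wavefront genes, 4 of 22 fell in Late Posterior PSM (18.2% against 6.15%), among them the Wnt target Sp5 (−0.41) and Fgf8 (−0.30), and in NMPs 1 rose and 6 fell of 18 (38.9% against 5.98%), with Egr1 at −1.31 and Tbx6 at −0.48. Of the somite boundary genes, 3 rose and 1 fell of 8 tested in Late Posterior PSM, with Meox1 at 1.04 and Foxc2 at 0.57, and 2 of 14 rose in whole gastruloids (14.3% against 13.5%), Meox2 (1.52) and Uncx (1.24). Of the neurogenesis genes, 2 rose and 1 fell of 4 tested in Late Posterior PSM, with Gadd45g at 2.14 and Stmn2 at −1.67.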
